A study of Zea mays with 6 samples.

Results

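The transcripts described here encode proteins that carry potassium, sodium and calcium across membranes. They were chosen from the deposited annotation alone, as the transcripts whose KEGG Orthology entry contained, in any case, one of 6 phrases (potassium, Na+/H+, solute carrier family 9, cyclic nucleotide gated channel, Ca2+-transporting ATPase, Ca2+:H+ antiporter). The rule found 164 transcripts of 145 genes, among 48312 transcripts of 43006 genes in the whole table. The phrase potassium found 64 transcripts, Ca2+-transporting ATPase 39, cyclic nucleotide gated channel 38, Ca2+:H+ antiporter 12 and solute carrier family 9 found 11, whereas Na+/H+ by itself found 0. The rule reads no measured value, but it was set with earlier results of these data known.

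The samples were root tips of maize (Zea mays L., cultivar Chang 7-2) grown in Hoagland's nutrient solution. Primary roots with salt (PR-salt) received 100 mM NaCl for 24 h and primary roots without it (PR) received 0 mM NaCl over the same 24 h. Crown roots (CR-salt and CR) and seminal roots (SR-salt and SR) were handled in the same way. All 6 groups share the same cultivar, and no transgene or mutant was used. Each library held tips pooled from several roots, and each condition had 1 library, although the labels speak of 3 biological replicates per root type. The PR came from the youngest plants and the CR from the oldest, so root type and plant age cannot be told apart. A median of 2549512 uniquely aligned reads was counted per library (the lowest library was 2.24% below the median and the highest 4.47% above it), and 11025 to 12903 reads of a library (0.434% to 0.504%) fell on the 164 transcripts.

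A salt-exposed root has to hold K+ in the cytosol while Na+ enters, and Ca2+ serves as an early signal of the stress. KUP transporters (also called HAK or KT) take up K+ with high affinity, and two-pore channels release K+ from the vacuole. Na+/H+ exchangers use the proton gradient to load Na+ or K+ into the vacuole and other endomembrane compartments or to move Na+ out of the cell. Cyclic nucleotide gated channels (CNGC) admit cations, Ca2+ among them, whereas Ca2+-ATPases and Ca2+:H+ antiporters remove Ca2+ from the cytosol. Cation/chloride cotransporters move K+ or Na+ together with chloride. The Na+/K+/Ca2+ exchangers were first described in animals, where they expel Ca2+ in exchange for Na+.

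The 164 transcripts fell into 8 types. There were 44 KUP transcripts, 39 Ca2+-ATPases, 38 under the CNGC entry, 12 Ca2+:H+ antiporters, 11 Na+/H+ exchangers, 9 Na+/K+/Ca2+ exchangers, 7 cation/chloride cotransporters and 4 two-pore K+ channels. Gene Ontology (GO) terms mostly fitted these entries, since 7 of 7 cotransporters held the term cation:chloride symporter, 9 of 11 Na+/H+ exchangers held monovalent cation:hydrogen antiporter, 11 of 12 Ca2+:H+ antiporters held calcium:cation antiporter and 29 of 39 Ca2+-ATPases held cation-transporting ATPase. The CNGC entry held mixed terms. Of its 38 transcripts, 12 held potassium channel activity, 8 held voltage-gated potassium channel activity and 5 held the intracellular cyclic nucleotide activated cation channel term. Some transcripts, GRMZM5G858887_T01 among them, held the voltage-gated and the cyclic nucleotide term together. The terms therefore do not divide the entry into separate kinds of channel. A further KEGG entry stood on 13 of the 164 transcripts, which were placed by the entry that matched.

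Many of the transcripts were scarcely read. At this depth 1 read on a transcript of 1 kb was worth 0.375 to 0.401 RPKM (reads scaled by transcript length in kb and by library size). Of the 164 transcripts, 62 had 3 reads or fewer in every library, 97 were read in all 6 libraries and 86 to 90 per library had fewer than 10 reads. The scarce ones were unevenly spread, with 17 of 39 Ca2+-ATPases, 17 of 38 CNGC transcripts, 13 of 44 KUP transcripts and 8 of 12 Ca2+:H+ antiporters at or under 3 reads everywhere, against 0 of 4 two-pore channels. A difference in such transcripts was not detectable at this depth. Of 17 genes with several transcripts on the list, 11 had over 90% of their reads on 1 transcript, and the splitting of reads between the other isoforms is uncertain.

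As a check of the tissue, EXP1 (an expansin, which loosens cell walls) and NRT2:1 (a nitrate transporter), both salt-responsive genes in the study, were taken for the root, and they were read in every library. Neither was chosen as specific to the root, so their reads alone do not establish the tissue. EXP1 had 441 RPKM in the untreated PR library and 75.6 to 129 RPKM in the other 5. NRT2:1 had 0.238 RPKM in PR-salt, less than the 0.375 RPKM of 1 read on 1 kb there, and 12.7 to 64.7 RPKM in the other 5. Leaf transcripts were not absent. The summed level of 21 light-harvesting transcripts was 124 RPKM in PR-salt and 101 in PR, 75.2 in CR-salt and 35.6 in CR, and 92.5 in SR-salt and 96.5 in SR, and that of 2 transcripts of the rubisco small chain was 2.2 to 6.16 RPKM. Their part in the results was not tested. In such bulk tissue, fewer cells of a type and less RNA per cell cannot be told apart.

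Ca2+-ATPases made up the largest part of the transporter mRNA. Their summed level was 1327 RPKM in PR-salt and 1201 in PR, 1143 in CR-salt and 1180 in CR, and 1111 in SR-salt and 1110 in SR. KUP transcripts came next, with 752 RPKM in PR-salt and 819 in PR, 670 in CR-salt and 575 in CR, and 650 in SR-salt and 630 in SR. The CNGC entry summed to 471 RPKM in PR-salt and 485 in PR, 432 in CR-salt and 446 in CR, and 420 in SR-salt and 449 in SR. The other types were lower by several-fold in all 6 libraries, with 109 to 124 RPKM for Na+/H+ exchangers, 76.6 to 99.1 for cotransporters, 49.5 to 61.5 for Na+/K+/Ca2+ exchangers, 36.7 to 46.0 for Ca2+:H+ antiporters and 29.2 to 40.0 for two-pore channels. The order of the 3 most abundant types was the same in every library.

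**Figure D1:**
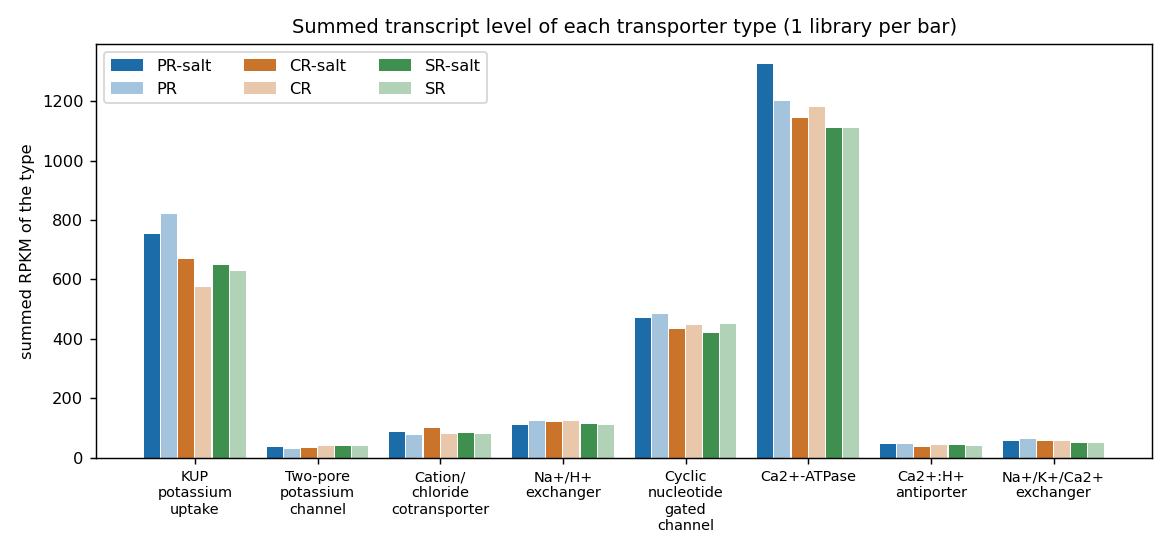
Summed RPKM (vertical axis, from 0) of each of the 8 transporter types in the 6 libraries, with the salt-treated library left of its untreated partner and 1 library per bar. Ca2+-ATPases stand at 1110 to 1327 RPKM and KUP transcripts at 575 to 819 RPKM, above the other types in each library.

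Salt changed few of these transcripts past the study's thresholds. The 2 libraries of each root type were compared by the Audic-Claverie test, which asks whether 2 read counts differ by more than counting error, and a call needed a false discovery rate (FDR) of 0.001 or less and a log2 RPKM ratio of 1 or more in size. In PR-salt against PR, 2 of 141 transporter transcripts with a read were called, both lower, which is 1.42% against 0.519% of all transcripts tested. In CR-salt against CR, 1 of 142 was called, higher (0.704% against 0.369% of all). In SR-salt against SR, 1 was called higher and 1 lower among 132 (1.52% against 0.392% of all). The counts are so small that the shares of the transporters and of all transcripts cannot be ranked. With 1 library per condition these tests compare the libraries and cover counting error only. When a biological coefficient of variation of 0.2 was assumed in edgeR's exact test, none of the 5 calls was kept: the FDRs of GRMZM2G395267_T01 were 0.839 in PR and 1 in SR, those of GRMZM2G438960_T01 in SR and GRMZM5G858887_T01 in CR were 1, and that of GRMZM2G084779_T01 in PR was 0.0593. The value of 0.2 was not estimated from these data. A fit of all 6 libraries by edgeR gave a common value of 0.102, with only 2 residual degrees of freedom. That value is not a spread of replicates, since salt ratios that differ between root types count as spread in the fit.

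Of the 5 calls, 4 fell on KUP transcripts and 1 on a transcript of the CNGC entry, and no exchanger, cotransporter, two-pore channel, Ca2+-ATPase or Ca2+:H+ antiporter was called in any root type.

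GRMZM2G395267_T01, a KUP transcript, was called lower under salt in both PR and SR. It had 24.3 RPKM (156 reads) in PR-salt and 58.7 RPKM (362 reads) in PR. In SR-salt it had 20.1 RPKM (123 reads), against 45.4 RPKM (273 reads) in SR. CR differed, with 22.4 RPKM (137 reads) in CR-salt and 18.9 RPKM (119 reads) in CR. The 3 salt-treated libraries thus lay close together at 20.1 to 24.3 RPKM, and the untreated PR and SR stood above them while the untreated CR did not. The log2 ratio was -1.27 in PR (exact 95% interval -1.55 to -1.0, FDR 3.08e-19 by the Audic-Claverie test) and -1.18 in SR (-1.50 to -0.87, FDR 1.77e-12), against 0.25 in CR (-0.12 to 0.62).

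GRMZM2G438960_T01, another KUP transcript, went the other way in SR. It had 40.1 RPKM (256 reads) in SR-salt, against 18.9 RPKM (118 reads) in SR, a log2 ratio of 1.09 (0.77 to 1.42, FDR 5.76e-10 by the Audic-Claverie test). In CR-salt it had 22.5 RPKM (143 reads) and in CR 13.7 RPKM (90 reads), a ratio of 0.71 (0.32 to 1.11, FDR 0.0114) that did not pass. In PR-salt it had 45.2 RPKM (302 reads) and in PR 56.1 RPKM (360 reads), with a ratio of -0.31 (-0.54 to -0.09). Both PR libraries and SR-salt were therefore high and both CR libraries and untreated SR were low.

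GRMZM2G084779_T01, a scarcer KUP transcript, had 2.26 RPKM (14 reads) in PR-salt, against 11.1 RPKM (66 reads) in PR, and was called lower there (log2 ratio -2.30, -3.24 to -1.45, FDR 1.23e-07 by the Audic-Claverie test). It had 3 reads in CR-salt and 3 in CR, at the floor of 3 reads taken here. In SR-salt it had 2 reads and in SR 8 reads, too few for a call. Most of its reads came from the untreated PR library.

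GRMZM5G858887_T01 carries the CNGC entry and the GO terms of a voltage-gated K+ channel and of a cyclic nucleotide activated cation channel. It had 19.4 RPKM (110 reads) in CR-salt, against 9.40 RPKM (55 reads) in CR, and was called higher (log2 ratio 1.05, 0.57 to 1.54, FDR 0.000597 by the Audic-Claverie test). Its levels in the other roots were alike within each pair, with 31.7 RPKM in PR-salt and 35.1 in PR, and 13.0 RPKM in SR-salt and 12.2 in SR. With TMM library sizes the FDR in CR was 0.00109 and with DESeq2 size factors 0.00102, both just over the threshold.

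GRMZM2G093826_T01, the KUP transcript with the second highest mean level, just missed the ratio threshold in PR. It had 41.9 RPKM (262 reads) in PR-salt and 82.2 RPKM (493 reads) in PR, a log2 ratio of -0.97 (-1.19 to -0.75, FDR 7.53e-17 by the Audic-Claverie test). In CR-salt it had 51.8 RPKM (308 reads) and in CR 44.4 RPKM (272 reads). In SR-salt it had 44.3 RPKM (264 reads) and in SR 59.0 RPKM (345 reads), a ratio of -0.41 (-0.65 to -0.18). Its level in the untreated PR library stood above those in the other 5.

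**Figure D2:**
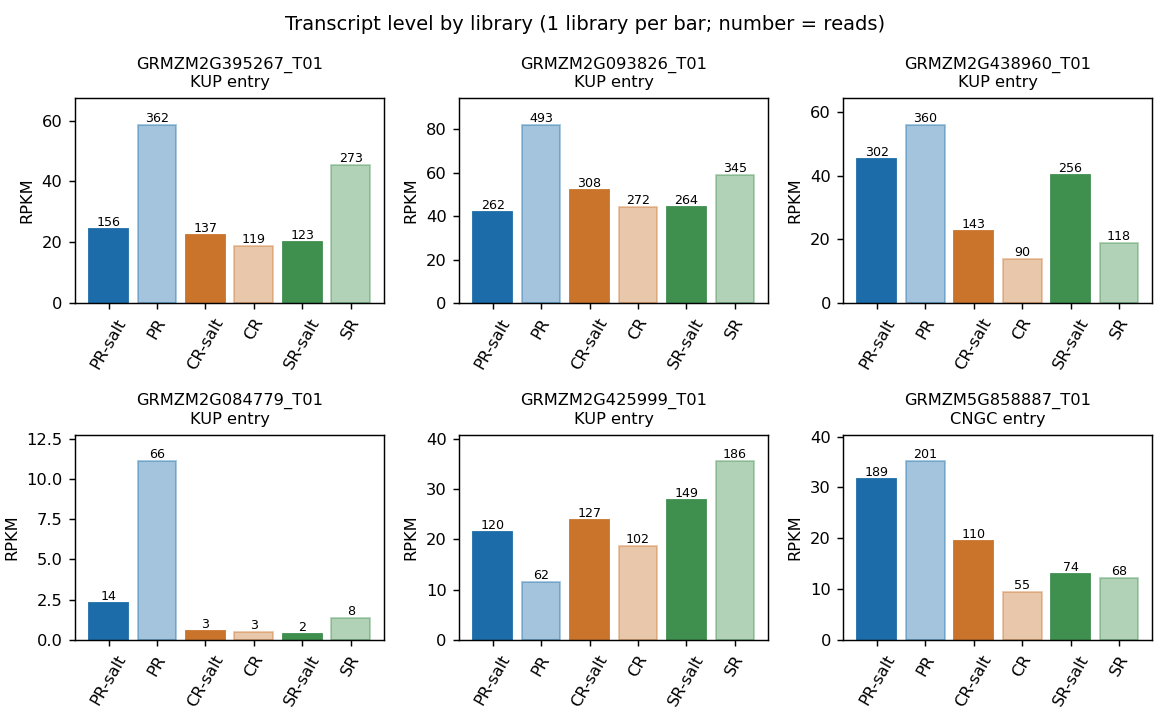
RPKM (vertical axes, each from 0) of 5 KUP transcripts and 1 transcript of the CNGC entry in the 6 libraries, with the number of reads over each bar. GRMZM2G395267_T01 is at 20.1 to 24.3 RPKM in all 3 salt-treated libraries and at 58.7 and 45.4 RPKM in PR and SR, whereas GRMZM2G438960_T01 is at 40.1 RPKM in SR-salt and 18.9 RPKM in SR.

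Whether the salt ratio itself differed between root types was tested by an exact conditional test on the reads of 4 libraries, two-sided, where those held 20 reads or more. A difference was called at an FDR of 0.001 or less and a difference of log2 ratios of at least 1, with 1 read added to each count. Between PR and CR, 3 of 88 transporter transcripts were called, all with the lower ratio in PR (background 0.684% of all transcripts). Between PR and SR, 2 of 91 were called, 1 in each direction (background 0.726%). Between CR and SR, 1 of 87 was called, with the higher ratio in CR (background 0.195%). All 6 calls were on KUP transcripts.

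GRMZM2G395267_T01 differed between PR and CR by -1.51 on the log2 scale (exact 95% interval without the added read -1.98 to -1.06, FDR 4.56e-09 by the exact conditional test) and between CR and SR by 1.42 (0.94 to 1.91, FDR 7.58e-07). Its ratios in PR and SR differed by -0.10 (-0.52 to 0.33), which was not called. GRMZM2G093826_T01 differed between PR and CR by -1.19 (-1.52 to -0.87, FDR 5.55e-11). GRMZM2G438960_T01 had a lower ratio in PR than in CR by 1.02 (difference -1.02, -1.48 to -0.57, FDR 0.000386) and than in SR by 1.39 (difference -1.39, -1.80 to -1.01, FDR 1.10e-10). For the channel GRMZM5G858887_T01 the difference between PR and CR was -1.18 (-1.77 to -0.62), with an FDR of 0.00124 that did not pass.

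GRMZM2G425999_T01 was the 1 KUP transcript whose ratio was called higher in PR than in SR. It had 21.5 RPKM (120 reads) in PR-salt and 11.6 RPKM (62 reads) in PR, 23.9 RPKM (127 reads) in CR-salt and 18.6 RPKM (102 reads) in CR, and 28.0 RPKM (149 reads) in SR-salt and 35.6 RPKM (186 reads) in SR. The untreated PR library was the lowest and the untreated SR library the highest of the 6. The difference of the log2 ratios between PR and SR was 1.23 (0.68 to 1.81, FDR 0.000491 by the exact conditional test). The ratio in PR alone, 0.89 (0.44 to 1.36, FDR 0.00363 by the Audic-Claverie test), was not called.

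The KUP entry was divided by GO term, a split noticed after the values had been seen and given without a test. The term potassium ion symporter was on 7 KUP transcripts, of which 4 had at least 50 reads over the 6 libraries, and all 4 had a call of a salt ratio or of its difference (GRMZM2G395267_T01, GRMZM2G438960_T01, GRMZM2G084779_T01 and GRMZM2G093826_T01). The term metal ion transmembrane transporter was on 36, of which 21 had at least 50 reads, and 1 had a call (GRMZM2G425999_T01). Of all transcripts with as many reads, 2.72% had such a call. Since the calls were known when the split was made, nothing is read from these counts. Summed over the 7 symporter transcripts, the level was 115 RPKM in PR-salt and 210 in PR, 99.3 in CR-salt and 78.6 in CR, and 107 in SR-salt and 126 in SR. The log2 ratio of their summed reads was -0.86 in PR (-0.99 to -0.73), 0.34 in CR (0.17 to 0.52) and -0.22 in SR (-0.38 to -0.07). Summed over the 36 others, the level was 637 RPKM in PR-salt and 605 in PR, 570 in CR-salt and 496 in CR, and 544 in SR-salt and 504 in SR, with log2 ratios of summed reads of 0.07 (0.00 to 0.15), 0.18 (0.11 to 0.26) and 0.08 (-0.00 to 0.16) in PR, CR and SR. Over the whole KUP entry the log2 ratio of summed reads was -0.15 in PR (-0.21 to -0.09), 0.21 in CR (0.14 to 0.28) and 0.01 in SR (-0.06 to 0.08). Nearly all reads of the 7 symporter transcripts came from the 4 with a call. Their sums therefore restate those calls, and nothing is read from a comparison of the groups. The intervals of all these sums cover counting error only.

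Most of the remaining KUP transcripts moved little. Among all KUP transcripts with 50 or more reads in a pair, those with a call included, the log2 ratio was above 0 in 12 of 20 in PR, 16 of 18 in CR (median 0.24) and 11 of 18 in SR. Among those with the metal ion transmembrane transporter term, which include GRMZM2G425999_T01, it was above 0 in 12 of 16 in PR (median 0.19). In CR it was above 0 in 13 of 15 (median 0.23) and in SR in 10 of 15 (median 0.03). The most abundant one, AC233953.1_FGT005, had 118 RPKM in PR-salt and 110 in PR, 88.0 in CR-salt and 77.4 in CR, and 87.5 in SR-salt and 79.7 in SR. It was the higher in the salt-treated library of each pair, with ratios of 0.09, 0.18 and 0.13 that did not pass. GRMZM2G375116_T01 had 47.3 RPKM in CR-salt and 32.0 in CR, a ratio of 0.56 under the ratio threshold (FDR 0.002 by the Audic-Claverie test). GRMZM2G327229_T01 had 34.9 RPKM (43 reads) in CR-salt and 16.5 RPKM (21 reads) in CR, a ratio of 1.08 with an FDR of 0.118. These last 2 were named after their values had been seen.

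**Figure D3:**
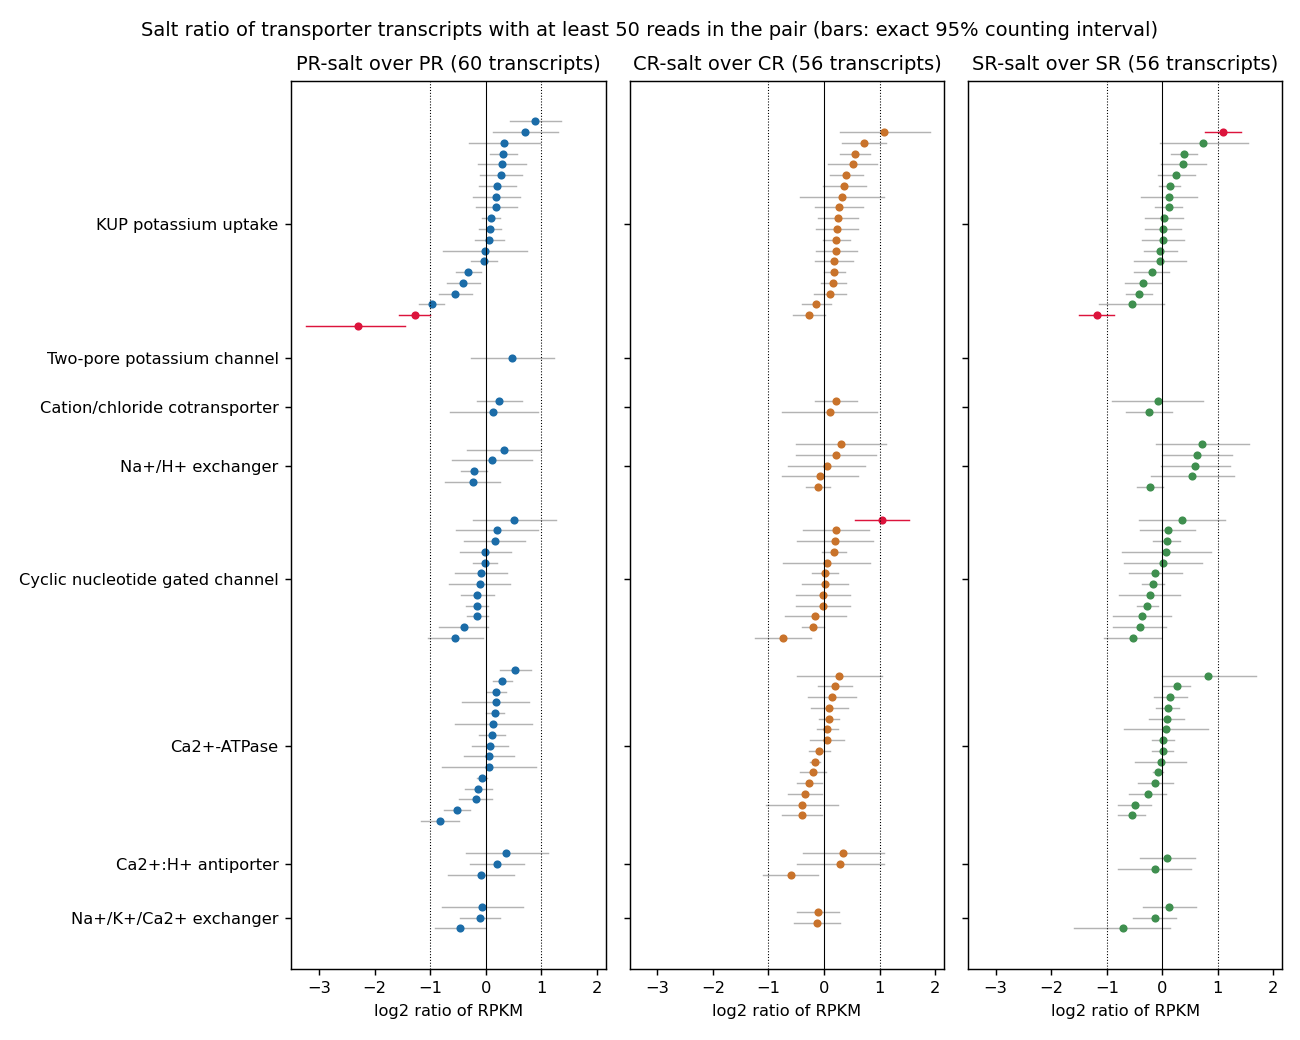
Log2 ratio of RPKM, salt over untreated (horizontal axes), of the transporters with 50 or more reads in the pair, by type, in PR, CR and SR. Each point is 1 transcript, bars are exact 95% counting intervals, dotted lines mark ratios of -1 and 1, and red marks calls. The 60, 56 and 56 points lie mostly near 0, with 2 red points in PR, 1 in CR and 2 in SR.

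Over all 8 types, the transporters with 50 or more reads in a pair had median log2 ratios of 0.06 in PR (32 above and 28 below 0), 0.11 in CR (37 above and 19 below) and 0.01 in SR (30 above and 26 below). The medians over all transcripts with as many reads were 0.04, 0.02 and 0.03, of which 55.7%, 52.5% and 53.5% were above 0. Between salt-treated and untreated libraries the reads of all transporters together differed by -0.07 on the log2 scale in PR (-0.10 to -0.03), 0.02 in CR (-0.02 to 0.05) and -0.05 in SR (-0.09 to -0.01).

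The 3 salt-treated libraries were compared with the 3 untreated ones by edgeR's quasi-likelihood test, with root type as a covariate, on transcripts that reached 10 reads in 3 or more libraries. Of the 164 transporters 78 were abundant enough, among 18444 transcripts. The test called 0 of the 78 higher and 0 lower at an FDR of 0.05, against 0.125% called higher and 0.488% called lower of all transcripts tested. A salt ratio that differs between root types adds to the spread in this fit, so such a transcript is less readily called. At an unadjusted p under 0.05 there were 11 of the 78, of which 1 was higher and 10 lower under salt, and DESeq2 called 0, with 2 at an unadjusted p under 0.05. No share of all transcripts is given at an unadjusted p, so nothing is read from these counts or their direction. The median log2 fold change of the 78 was 0.02, against -0.01 over all transcripts tested. The nearest to a call were 2 Ca2+-ATPases, GRMZM2G006977_T01 and GRMZM2G056014_T01, each at an FDR of 0.0603.

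The Ca2+-ATPases included the transcript with the highest level on the list, GRMZM2G357620_T01, at 215 RPKM in PR-salt and 225 in PR, 241 in CR-salt and 269 in CR, and 244 in SR-salt and 258 in SR. Each salt-treated library was the lower of its pair, and the average log2 fold change was -0.13 ± 0.08 (SE from the edgeR fit, FDR 0.521 by edgeR's quasi-likelihood test). GRMZM2G006977_T01 had 31.9 RPKM in PR-salt and 45.7 in PR, 36.6 in CR-salt and 44.0 in CR, and 31.1 in SR-salt and 45.5 in SR. The salt-treated library was the lower in each pair, with an average of -0.47 ± 0.10 (SE). GRMZM2G056014_T01 had 13.3 RPKM in PR-salt and 23.5 in PR, 13.7 in CR-salt and 18.0 in CR, and 19.9 in SR-salt and 28.2 in SR. It was lower with salt in each pair although the ranges of the groups overlapped, with an average of -0.60 ± 0.12 (SE). Both lay above the FDR threshold, although edgeR called both lower without the filter on low counts and again without the 2 PR libraries. They were named after their values had been seen.

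Other abundant Ca2+-ATPases were higher in PR-salt without passing. GRMZM2G155366_T01 had 288 RPKM in PR-salt and 198 in PR (log2 ratio 0.54, FDR 0.0053 by the Audic-Claverie test), against 198 RPKM in CR-salt and 191 in CR, and 191 in SR-salt and 180 in SR. GRMZM2G141704_T01 had 215 RPKM in PR-salt and 175 in PR (log2 ratio 0.30), 167 in CR-salt and 160 in CR, and 152 in SR-salt and 143 in SR. Both were named after their values had been seen. Of 15 Ca2+-ATPases with at least 50 reads in the PR pair 10 had a ratio above 0, and of 14 each in CR and SR there were 7 and 8.

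Within the CNGC entry, the most abundant transcript was GRMZM2G023037_T01, which holds the GO term of a potassium channel. It had 70.0 RPKM in PR-salt and 77.8 in PR, 70.9 in CR-salt and 81.4 in CR, and 72.3 in SR-salt and 81.6 in SR. The salt-treated library was the lower in each pair, but the average log2 fold change of -0.21 ± 0.08 (SE) had an FDR of 0.34 by edgeR's quasi-likelihood test. Of 12 CNGC transcripts with 50 or more reads in the pair, 3 in PR, 7 in CR and 5 in SR had a ratio above 0.

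The exchangers of Na+ and protons held 1 transcript far above the others. GRMZM2G063492_T01 had 69.3 RPKM in PR-salt and 80.3 in PR, 83.2 in CR-salt and 89.8 in CR, and 64.5 in SR-salt and 75.3 in SR, which was 66.1% of the summed mean RPKM of the type. It was the lower in the salt-treated library of each pair, by -0.21 ± 0.09 on average (SE, FDR 0.365 by edgeR's quasi-likelihood test). GRMZM2G098494_T01, which also holds the KEGG entry of a monovalent cation:H+ antiporter of the CPA1 family, had 4.79 RPKM in PR-salt and 3.82 in PR, 3.96 in CR-salt and 4.15 in CR, and 6.19 in SR-salt and 4.03 in SR. It was named after its values had been seen and was not called. In SR, 4 of 5 exchangers with at least 50 reads had a ratio above 0 and none was called.

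Of the remaining types, 4 two-pore channels, 5 cotransporters, 4 Ca2+:H+ antiporters and 3 Na+/K+/Ca2+ exchangers were abundant enough for edgeR, and none was called. The most abundant Ca2+:H+ antiporter, GRMZM2G143356_T02, had 23.7 RPKM in PR-salt and 20.6 in PR, 17.9 in CR-salt and 27.2 in CR, and 23.8 in SR-salt and 22.4 in SR. The ratio of -0.60 in CR had an FDR of 0.267 by the Audic-Claverie test. The most abundant cotransporter, GRMZM2G449569_T01, had 35.0 RPKM in PR-salt and 29.6 in PR, 40.6 in CR-salt and 35.1 in CR, and 29.2 in SR-salt and 34.6 in SR, with no common direction. A scarcer cotransporter, GRMZM2G401874_T01, named after its values had been seen, had 14 reads in PR-salt and 11 in PR, 10 in CR-salt and 24 in CR, and 8 in SR-salt and 23 in SR. Its log2 ratios were 0.29 in PR (-0.96 to 1.57), -1.22 in CR (-2.45 to -0.10, FDR 0.344 by the Audic-Claverie test) and -1.55 in SR (-2.92 to -0.34, FDR 0.146), and edgeR called it lower when the 2 PR libraries were left out. The leading Na+/K+/Ca2+ exchanger, GRMZM2G013728_T01, had 24.4 RPKM in PR-salt and 26.2 in PR, 22.8 in CR-salt and 24.5 in CR, and 22.9 in SR-salt and 25.2 in SR, slightly lower with salt in each pair and not called. The leading two-pore channel by RPKM, GRMZM2G048606_T01, is a model of 201 bases and had 8 to 13 reads per library, too few to show a modest difference.

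Levels were also compared between root types in the same edgeR fit, over the 2 libraries of each type, at an FDR of at most 0.05 and an absolute log2 fold change of at least 1. Between PR and CR, 2 of the 78 transporters were higher in PR and 0 lower (background 2.27% higher and 1.94% lower of all transcripts). Between PR and SR, 1 was higher and 1 lower in PR (background 1.14% higher and 1.89% lower). Between CR and SR, 0 were called in either direction (background 0.141% higher and 0.52% lower), with 12 at an unadjusted p under 0.05 (7 higher and 5 lower in CR), and DESeq2 called 0 with 0 at an unadjusted p under 0.05. The shares of calls are near or under those of all transcripts. No share of all transcripts is given at an unadjusted p, so nothing is read from the counts there.

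The KUP transcript GRMZM2G438960_T01 was higher in PR than in CR by 1.53 ± 0.27 on the log2 scale (SE, FDR 0.0052 by edgeR's quasi-likelihood test), with 45.2 and 56.1 RPKM in the PR libraries and 22.5 and 13.7 RPKM in the CR libraries, each given with the salt-treated library first. The channel GRMZM5G858887_T01 of the CNGC entry was higher in PR than in CR by 1.24 ± 0.24 (SE, FDR 0.00942) and than in SR by 1.43 ± 0.24 (SE, FDR 0.0068). Its 31.7 and 35.1 RPKM in PR stood apart from 19.4 and 9.40 in CR and from 13.0 and 12.2 in SR. The Na+/H+ exchanger GRMZM2G027851_T01 was lower in PR than in SR by 1.34 (log2 fold change -1.34 ± 0.31 SE, FDR 0.0351), with 3.24 and 3.14 RPKM in PR and 9.72 and 6.69 RPKM in SR, but it rested on 13 to 40 reads per library and DESeq2 gave an FDR of 0.616.

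Left out 1 at a time, single libraries decided some of these contrasts. The PR minus CR contrast of GRMZM5G858887_T01 was 0.74 without the CR library (FDR 0.115 by edgeR) and 0.90 without the PR library (FDR 0.00312, under the fold threshold), and its PR minus SR contrast had an FDR of 0.0859 without the SR-salt library. The PR minus CR contrast of GRMZM2G438960_T01 was 1.33 without the CR library (FDR 0.0548) and 0.92 without the PR library (FDR 8.04e-05, under the fold threshold). The contrast of GRMZM2G027851_T01 had an FDR of 0.156 without the PR-salt library, 0.0958 without the SR library and 0.333 without the SR-salt library.

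**Figure D4:**
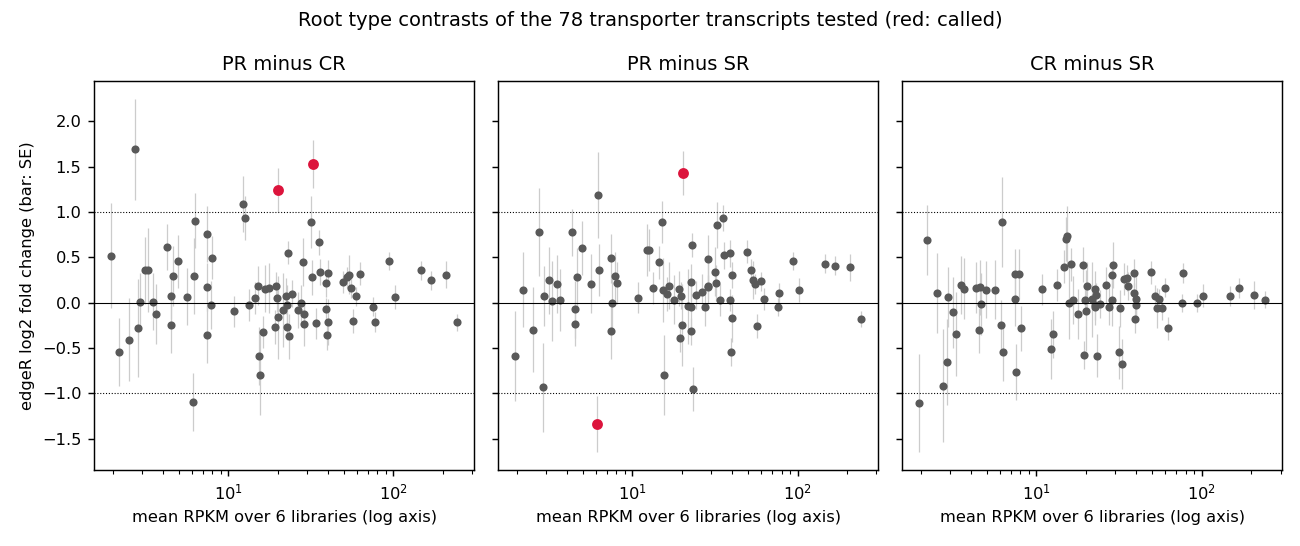
Log2 fold change of the 78 transporter transcripts tested between root types (vertical axis, bars are SE) against their mean RPKM over the 6 libraries (log axis). Dotted lines mark -1 and 1 and red marks calls, of which there are 2 for PR minus CR, 2 for PR minus SR and 0 for CR minus SR.

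Smaller contrasts past the FDR and under the fold threshold were found on the more abundant transcripts. AC233953.1_FGT005 (KUP) was higher in PR than in CR by 0.46 (FDR 0.0179 by edgeR's quasi-likelihood test) and than in SR by 0.46 (FDR 0.0246). GRMZM2G086389_T02 (KUP) was higher by 0.66 (FDR 0.0147) and 0.94 (FDR 0.00306), with 48.6 and 49.8 RPKM in PR-salt and PR, 35.6 and 26.9 in CR-salt and CR, and 28.3 and 23.8 in SR-salt and SR. GRMZM2G132712_T03 (Ca2+-ATPase) was higher by 0.55 (FDR 0.0251) and 0.64 (FDR 0.0166), with 28.2 and 30.9 RPKM in PR-salt and PR, 17.8 and 22.5 in CR-salt and CR, and 18.3 and 19.99 in SR-salt and SR. Without the fold threshold the contrast of PR and CR held 6 transporters and that of PR and SR held 7, with no share of all transcripts to set beside them. GRMZM2G086389_T02 and GRMZM2G132712_T03 were named after their values had been seen. The median contrast of the 78 was 0.07 for PR minus CR, 0.17 for PR minus SR and 0.04 for CR minus SR, against 0.00, 0.01 and -0.00 over all transcripts tested.

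The deposited table also gives the percent of each transcript covered by uniquely aligned reads, which shows how much of a gene model a level rests on. Of 43 transporter transcripts with at least 300 reads over the 6 libraries, 19 were over 90% covered in at least 1 library and 11 were under 60% covered in every one. GRMZM2G357620_T01 was 97.3% to 97.6% covered, whereas GRMZM2G056014_T01, the Ca2+-ATPase lower with salt in each pair, was 19.6% to 19.9% covered with 943 reads. GRMZM2G093826_T01, a KUP transcript with a called difference, was 40.9% to 41.8% covered with 1944 reads. In a transcript covered in part, RPKM divides by bases that no uniquely aligned read reached and understates the level of the part that was read. Whether the uncovered part was shared with another gene or not transcribed was not tested. The percent differed between libraries for some of the called transcripts, with 23.7% in PR-salt and 41.5% in PR for GRMZM2G084779_T01 and 74.3% in CR-salt and 63.4% in CR for GRMZM5G858887_T01.

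**Figure D5:**
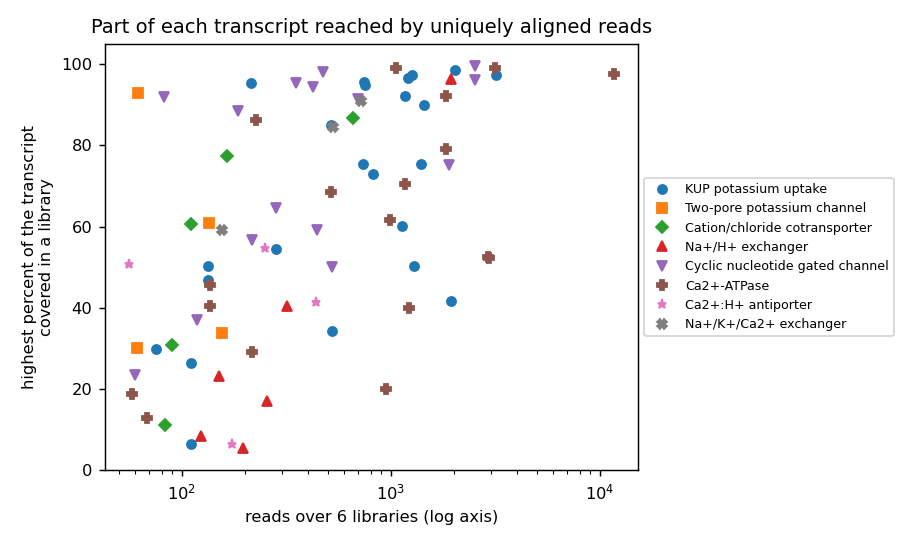
Highest percent of a transcript covered by reads in any library (vertical axis) against its reads over the 6 libraries (log axis), for the 78 transporter transcripts tested, with 1 symbol per type. GRMZM2G357620_T01 is the rightmost point, at 97.6%, and GRMZM2G056014_T01 lies at 19.9% with 943 reads.

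Genes that work beside these transporters were taken from lists of other annotation words. Of 118 proton pump transcripts 66 were tested by edgeR, with 1 higher and 0 lower and a median log2 fold change of 0.05. Over all transcripts tested, 0.125% were called higher and 0.488% lower, and the median was -0.01. A single call is too few to rank against these shares. Glutamate receptor channels (26 transcripts, 8 tested) and chloride channels (52 transcripts, 13 tested) had 0 called by edgeR or in any root type. A further 24 transcripts had a GO term of K+, Na+ or Ca2+ transport, with 13 tested, 0 called by edgeR and 1 called lower in SR. In SR 0.392% of all transcripts were called in either direction. No transcript was annotated as calcineurin B-like or CBL-interacting (0) or as a two-pore calcium channel (0).

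The proton pump was GRMZM2G104325_T01, an H+-transporting ATPase, a type of pump that builds the proton gradient the antiporters draw on. It had 458 RPKM in PR-salt and 344 in PR, 310 in CR-salt and 228 in CR, and 371 in SR-salt and 274 in SR, higher with salt in each pair by 0.41, 0.44 and 0.44 on the log2 scale. The average was 0.40 ± 0.07 (SE, FDR 0.0442 by edgeR's quasi-likelihood test). GRMZM2G022915_T01 holds the GO term potassium channel activity under a KEGG entry of a proteasome subunit, and it had 8.79 RPKM (53 reads) in SR-salt and 24.3 RPKM (144 reads) in SR, a called ratio of -1.47 (-1.95 to -1.01, FDR 4.35e-09 by the Audic-Claverie test). It had 28.3 RPKM in PR-salt and 30.6 in PR, and 3.83 RPKM in CR-salt and 8.22 in CR.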

How the data were processed

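Root tips of 3 root types with and without NaCl were sequenced in 6 libraries, 1 per condition. The authors removed reads of low quality, mapped the rest to the genome of the inbred B73 with SOAP, assigned them to genes by BLAST and deposited 1 table. The deposited count is the number of uniquely aligned reads per transcript, without normalization. The deposited RPKM divides it by transcript length and the uniquely aligned reads of the library, and recomputing it gave differences of at most 1.74e-06. The deposited percent is the part of the transcript covered by reads. No sample column was left without a sample (0).

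Members were matched in the KEGG Orthology text. The members and lists were chosen with earlier results of these data known. Named are the members called under salt or in a difference of ratios, the most abundant of each type, up to 5 called in each root type contrast and up to 3 called from each list of other genes; others are said to be named after their values were seen. A table of RefSeq genes matched 71 members by locus tag and gave no names.

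Salt pairs were tested on the reads with the Audic-Claverie test (2 times the smaller tail, Benjamini-Hochberg over transcripts with a read, 0.01 in place of an RPKM of 0). Differences of ratios were tested with Fisher's noncentral hypergeometric distribution. Average salt effects and root type contrasts were tested with edgeR 4.0.16 (TMM, 2 residual degrees of freedom), with DESeq2 1.42.0 as an alternative, in R 4.3.3. Each SE is the absolute log2 fold change divided by the square root of the quasi-likelihood F. It comes from the fit and is not a spread of replicate values. The other steps were run in Python 3.11.15 with scipy 1.17.1, pandas 2.3.3, numpy 2.4.6 and, for the plots, matplotlib 3.10.9. With 1 library per condition, the p-values of edgeR and DESeq2 measure only the spread between the 6 libraries, and those of the other tests cover counting error only. Depth was a median of 2549512 counted reads per library. Reads had no molecular identifiers, so intervals (95%, Clopper-Pearson) and the floor of 3 reads cover counting error only. Alternatives changed the test, scaling, filters, thresholds, assumed dispersion, summing to genes and libraries.

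On simulated counts, 200 transcripts with at least 50 expected reads were changed 4-fold. With counting error only, the Audic-Claverie test recovered 195 of 200 in each pair of 48312 transcripts and the difference test for PR minus CR 181 of 200. With a BCV (biological coefficient of variation) of 0.15, edgeR recovered 200 of 200 for the average salt effect among 18504 transcripts, with 8 other calls. This recovery does not extend to members with few reads or to changes smaller than 4-fold, which were not simulated. The average salt effects nearest to a call, of GRMZM2G006977_T01 and GRMZM2G056014_T01, were -0.47 and -0.60 on the log2 scale, less than 4-fold. How readily edgeR would call changes of that size was not tested.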

Additional observations from a re-analysis of the deposited data

Results flagged for a closer look

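For 4 KUP transcripts the salt ratio differed between root types by the exact conditional test on the reads of 4 libraries. GRMZM2G395267_T01 had a lower log2 ratio in PR than in CR (difference -1.51, FDR 4.56e-09) and a higher one in CR than in SR (difference 1.42, FDR 7.58e-07). GRMZM2G438960_T01 had a lower ratio in PR than in CR (difference -1.02, FDR 0.000386) and than in SR (difference -1.39, FDR 1.1e-10). GRMZM2G093826_T01 had a lower ratio in PR than in CR (difference -1.19, FDR 5.55e-11). GRMZM2G425999_T01 had a higher ratio in PR than in SR (difference 1.23, FDR 0.000491). The test compares libraries and covers counting error only, since each condition had 1 library.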

How the results depend on the processing

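With an assumed biological coefficient of variation of 0.2 in edgeR's exact test, the calls among the transporters were 0 in PR (2 by the Audic-Claverie test), 0 in CR (1) and 0 in SR (2). In CR the count was also 0 with TMM library sizes and 0 with DESeq2 size factors. For the average salt effect, 0 in the fit described, edgeR called 5 transporters without the filter on low counts, all lower, and 0 to 5 when the 2 libraries of a root type were left out (5 without PR, 2 without CR, 0 without SR). GRMZM2G395267_T01 was among them in each case with calls, with FDRs of 9.32e-08 without the filter, 0.00883 without PR and 0.00433 without CR. The Ca2+-ATPases GRMZM2G006977_T01 and GRMZM2G056014_T01 were called lower without the filter and without PR. For PR minus CR, 2 in the fit described, there were 6 calls without the filter, 6 without the fold threshold and 0 to 4 without single libraries. For PR minus SR, also 2, there were 1 with DESeq2, 7 without the fold threshold and 1 to 5 without single libraries. For CR minus SR, 0 in the fit described, there were 0 to 1, the 1 being GRMZM2G395267_T01 without the CR-salt library. No share of all transcripts is given under these alternatives, so the counts have no background. The differences of ratios between PR and SR numbered 1 without the minimum of reads and 2 with it, as GRMZM2G425999_T01 then had an FDR of 0.001. Over the named transcripts and the alternatives run, 983 values kept direction and call, 17 lost a call, 16 gained one and 0 reversed. Many of these values had no call to lose, and some settings cannot alter a log2 ratio. The tally is therefore no measure of how firm the calls are. With the assumed biological coefficient of variation of 0.2, 40 values were kept and 5 lost a call, and those 5 were all of the salt calls. The cause of the changed calls was not tested. The labels give no replicate numbers. Root type as a covariate paired each salt-treated library with its untreated partner, and without that covariate edgeR also called 0. Depth limits the 86 transporters that edgeR did not test.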
